A study of Homo sapiens with 6 samples.

Results

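Antisense RNA genes are genes whose transcripts come from the strand opposite to another, usually protein-coding, gene. The 92 antisense RNA genes described here were chosen by measured values: transcript counts were summed per gene by GENCODE v29, and a gene was taken if its v29 gene type was antisense and its count averaged at least 1 CPM (the count relative to the library's total) over the 6 libraries. They were 92 of the 419 antisense genes with a transcript in the count table (22.0%), of 5583 annotated in v29 and of 18750 genes of any type with counts. The libraries were labelled as HCT116, an established human colorectal carcinoma cell line. In 3 libraries (labelled Si-AC010789.1, here si-AC010789.1) the cells had been transfected with a siRNA against AC010789.1, a long non-coding RNA, and in the other 3 (labelled control, here siRNA-NC) with a negative control siRNA. The cells shared 1 medium, 1 line and 1 siRNA per group, and the labels do not say which libraries came from separate cultures. The study's discussion speaks of biological repeats made with cells of differing generations, without naming the libraries, so the spread behind the p-values may hold that difference too. The level of AC010789.1 was not analysed here.

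Many antisense RNAs start beside the promoter of a coding gene and run away from it, others cover a coding gene's end or lie within its introns. Some act on the neighbouring gene in cis, some act elsewhere in the cell, and for most no function is known. Where a library does not mark the strand, reads from bases that both genes carry in exons cannot be told apart. The kit named for these libraries (TruSeq RNA) carries no strand marking in its name, and the strand setting of the counting was not given in the sources used here. The counts of an antisense gene whose exons overlap those of its opposite-strand gene are therefore uncertain.

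The 6 libraries held 11277222 to 13443866 counts, so that 3 counts stood for 0.223 to 0.266 CPM, and a gene at 1 CPM rested on few reads. Of 18 colorectal epithelial markers, 11 had a row in the table analysed here and 7 averaged at least 1 CPM. KRT8 and KRT18, keratins of simple epithelia, averaged 626 and 407 CPM, EPCAM averaged 4.29 CPM and CDH1 (E-cadherin) 0.797 CPM, while CDX2 and VIL1, which mark intestinal cells, and KRT19 had no row. Of the same list, ELF3, ESRP2 and CLDN7 averaged 75.2, 60.7 and 23.2 CPM, while CDH17, LGALS4 and CLDN3 were under 1 CPM. CLDN4 averaged 17.2 CPM but was at 0.322 CPM in the second si-AC010789.1 library. The list was thus mixed. Its low or missing markers sit poorly with a colorectal epithelial label and its expressed ones do not, and the table analysed here gave no further check of the line. Of 10 mesenchymal markers, 9 had a row and 7 averaged at least 1 CPM. Among them VIM averaged 779 CPM and COL6A1 101 CPM, while COL6A2 and SPARC were under 1 CPM and COL1A2 had no row. The summed level ranged from 1172 to 1401 CPM with siRNA-NC and from 967 to 1215 CPM with si-AC010789.1 for the epithelial list, and from 1033 to 1174 and from 902 to 1110 CPM for the mesenchymal list. The leukocyte list summed to at most 1.61 CPM in any library. Whether these differences had a part in the results below was not tested.

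The antisense RNA genes were low in level and a few of them held much of the total. Their mean CPM had a median of 2.18, with 43 genes under 2 CPM, 16 at 5 CPM or more and 9 at 10 CPM or more. The summed level was 344 to 375 CPM in the siRNA-NC libraries and 370 to 397 CPM in the si-AC010789.1 libraries, and the 10 highest genes held 46.0% of it. The 92 genes held 80.9% of the summed level of all 419 listed antisense genes. The 3 genes just inside the limit were NRAV at 1.03 CPM (opposite DYNLL1, a dynein light chain), H1FX-AS1 at 1.02 CPM (opposite H1FX, a linker histone) and AC073389.1 at 1.01 CPM (beside USP54). None of the 3 separated the groups, H1FX-AS1 being at 0 in the first library of each. The 3 just outside were AC015712.2 at 0.972 CPM (opposite ALDH1A3, a retinaldehyde dehydrogenase), RHPN1-AS1 at 0.968 CPM (beside RHPN1) and LENG8-AS1 at 0.954 CPM (opposite LENG8).

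AC068768.1 (ENSG00000235423.8, GRCh38 chr12:123252030-123261483, minus strand) had the highest level, opposite C12orf65, which encodes a mitochondrial translation release factor. It stood at 43.5, 43.7 and 24.9 CPM with siRNA-NC and at 52.4, 13 and 48.7 CPM with si-AC010789.1 (CPM here and below scaled by TMM, edgeR's normalization). The groups overlapped, and the lowest and the highest value were both with si-AC010789.1. FGD5-AS1 (chr3:14920347-14948424, minus strand), an RNA described in several tumor types, came next at 19.1, 38.1 and 24.1 CPM with siRNA-NC and 14.7, 18.7 and 17.5 CPM with si-AC010789.1. OTUD6B-AS1, a non-coding RNA mentioned in the study's discussion, whose 5′ end lies 7 nt from that of the deubiquitinase gene OTUD6B, was at 25.4, 8.30 and 23.6 CPM with siRNA-NC and 24.5, 20.7 and 25.0 CPM with si-AC010789.1. Here the second siRNA-NC library alone was low.

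OVCH1-AS1 was the steadiest of the 5 highest, at 16.7, 16.7 and 18.8 CPM with siRNA-NC and 14.6, 17.2 and 19.2 CPM with si-AC010789.1. WAC-AS1, head to head with WAC (an adaptor in histone H2B ubiquitination), was at 7.80, 12.1 and 14 CPM and at 15.8, 14.5 and 9.39 CPM. AC018647.2, head to head with HERPUD2, was at 11.9, 12.7 and 11.7 CPM and at 8.04, 11.7 and 13.3 CPM. In all 3 of these genes the groups overlapped. AC006329.1, which faces IFT22, a subunit of intraflagellar transport, was at 9.13, 10.3 and 10.6 CPM and at 10.3, 11.7 and 9.88 CPM. AL355488.1, within an intron of the monocarboxylate transporter family gene SLC16A4, was at 8.24, 7.99 and 13.1 CPM and at 7.08, 11.6 and 10.8 CPM. Neither of these separated the groups. FBXL19-AS1, also among the 10, is described with the changes below.

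**Figure D1:**
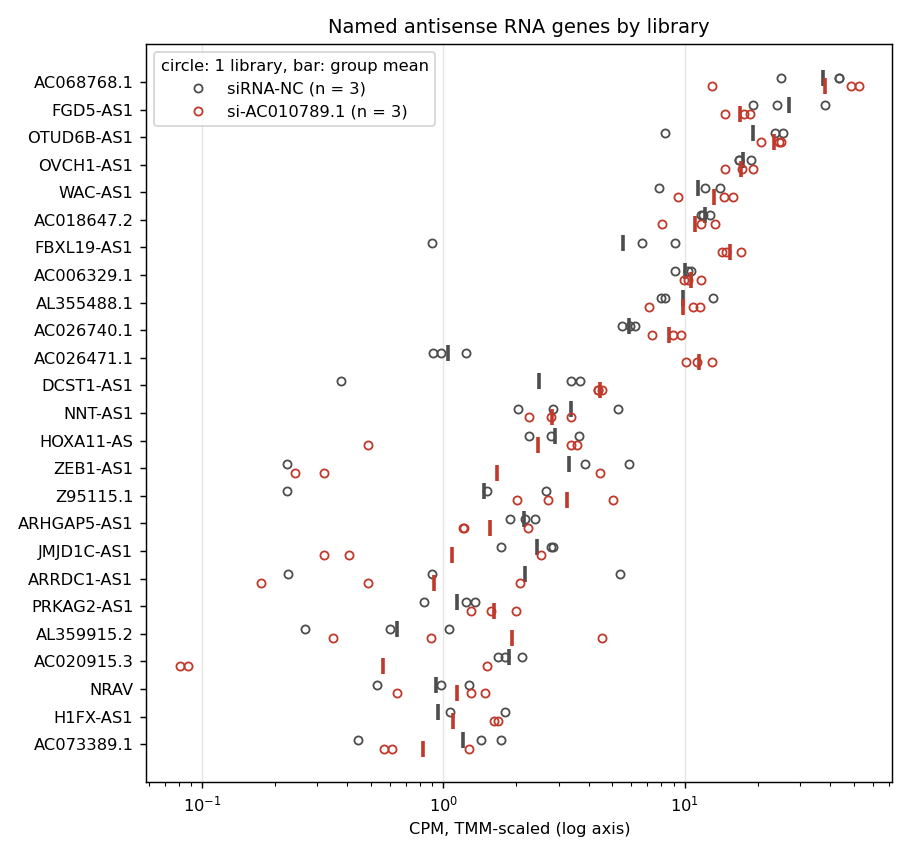
Level of 25 named antisense RNA genes in each of the 6 libraries (horizontal log axis, CPM scaled by TMM), with circles for single libraries and vertical bars for group means of siRNA-NC (grey) and si-AC010789.1 (red). The 2 groups lie far apart for AC026471.1, while single libraries fall far below the rest of their group for DCST1-AS1, FBXL19-AS1 and others. The 2 libraries in which H1FX-AS1 was at 0 lie outside the log axis.

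The arrangement with the opposite-strand gene was read from the v29 annotation, taking the coding gene with the largest overlap of gene bodies or, without one, the nearest opposite-strand coding gene within 5000 nt. Of the 92 genes, 91 had a coding partner by this rule. In 40 the pair stood head to head, with overlapping 5′ parts, and in 15 it was divergent without overlap. In 45 of these 55 the 2 annotated 5′ ends lay within 1000 nt of each other, the layout of a shared, bidirectional promoter region. In 19 the antisense gene lay inside its partner, in 7 the partner lay inside the antisense gene, in 10 the pair met tail to tail and in 1 it was convergent without overlap. Median levels were 2.20 CPM head to head, 2.16 CPM in divergent pairs, 1.74 CPM inside the partner and 3.58 CPM tail to tail.

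Exons overlapped those of an opposite-strand gene in 65 of the 92, over a median of 15.3% of the antisense gene's exon bases, and in 6 over more than 50%. The other 27 shared no exon base on the opposite strand, and 10 shared exon bases with a gene on their own strand. The transcript with the most counts had a single exon in 40 of the 92 (43.5%), against 22.3% of the 327 listed antisense genes under the limit. Its median length was 1414 nt, against 665 nt in those 327. The limit was set on CPM not divided by length, so the rule itself favours longer transcripts. In 62 of the 92 the table listed 1 transcript.

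Per length, most antisense RNA genes lay below their partner. In CPM per kb of exon, the partner was higher in 70 pairs, the antisense gene in 15, and in 7 the partner had no row in the table, with a median partner level 6.09 times that of the antisense gene. The length was that of a gene's annotated exons joined over all its transcripts, with or without counts. Of the 15, AC026471.1 was at 2.06 CPM per kb against 1.84 for ARMC5 over the 6 libraries. With siRNA-NC alone, AC026471.1 averaged 1.04 CPM and ARMC5 8.66 CPM, not divided by length. AC068768.1 was the highest per length, at 21.4 CPM per kb against 2.29 for C12orf65. The exons of AC068768.1 share 513 nt with genes on its own strand, which adds to the uncertainty of its counts. AC006329.1 was at 14.6 CPM per kb against 3.81 for IFT22, and AC026740.1 at 9.15 against 1.21 for TPPP (tubulin polymerization-promoting protein), within whose gene it lies. Not divided by length, AC006329.1 was below IFT22 (10.3 against 15.7 CPM) and AC026740.1 near TPPP (7.24 against 7.27 CPM). For OVCH1-AS1, AGAP2-AS1, DCST1-AS1, AC073508.3, AL355488.1 and ENTPD1-AS1 the antisense gene was expressed opposite a coding gene at 0.0101 to 0.0783 CPM per kb. ENTPD1-AS1 overlaps 4 opposite-strand coding genes and AC073508.3 overlaps 2, and these levels cover only the coding gene with the largest overlap. At the other end, AC011603.2 was at 1.71 CPM per kb against 299 for TUBA1B, an alpha-tubulin gene. All 897 nt of its listed transcript, which has 2 exons, lie within exons of TUBA1B. AC011603.2 was at 2.69 ± 1.03 CPM with siRNA-NC and 2.91 ± 0.244 CPM with si-AC010789.1 (SD, n = 3). Its reads that lie within a single exon cannot be told apart from reads of TUBA1B without strand information.

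**Figure D2:**
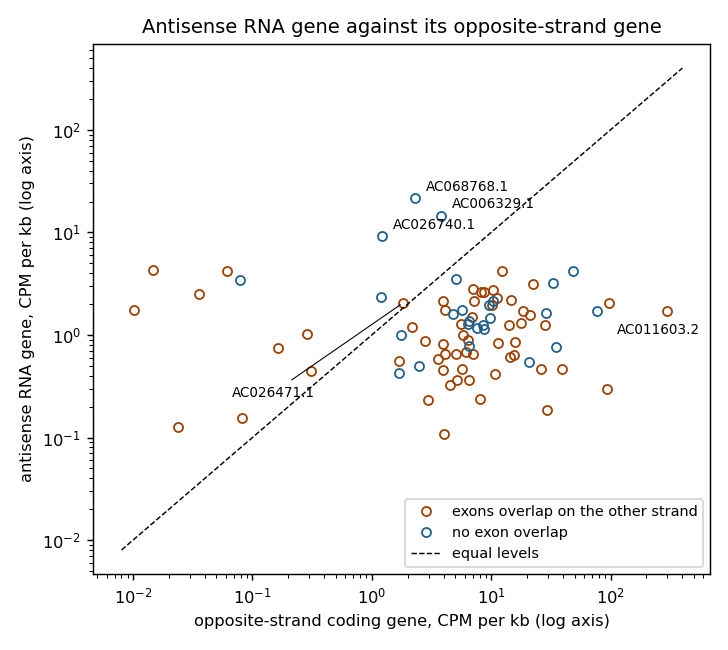
Mean level per kb of exon over the 6 libraries of each antisense RNA gene (vertical) against its opposite-strand coding gene (horizontal), both on log axes, for the pairs in which both have counts. Points above the dashed line of equal levels are the 15 pairs in which the antisense gene was higher, among them AC068768.1, AC006329.1 and AC026740.1.

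The only contrast of the design asked which of these genes differed between si-AC010789.1 and siRNA-NC, and 1 of them did at an adjusted p under 0.05. The test was edgeR's quasi-likelihood test over 13750 genes with Benjamini-Hochberg adjustment, which 89 of the 92 entered. AC067852.2, AC093525.7 and AC239868.1 failed the filter on low counts, each with counts high in only 1 or 2 libraries. The called gene, AC026471.1, was higher with si-AC010789.1. Over all 13750 genes, 0.982% were called, 0.284% higher and 0.698% lower. No antisense gene was called lower in edgeR or DESeq2, and 1 had an unadjusted p under 0.05 on that side. DESeq2's own filter on low levels (independent filtering) left several of these genes without an adjusted p, so they could not be called there. Without that filtering, a setting added after seeing the data, DESeq2 called none lower either. The criteria that the study's methods state for coding genes (unadjusted p under 0.05 with a log2 fold change beyond 1 in either direction) were also met by AC026471.1 alone, against 0.778% of all genes. An unadjusted p under 0.05 was found for 3 of the 89 (3.37%), against 17.2% of all genes. The groups did not overlap, all 3 values of one being above all 3 of the other, in 7 of the 89 (7.87%), against 25.1% of all genes, with 5 higher and 2 lower with si-AC010789.1.

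The direction of small differences leaned upward: 55 of the 89 were higher with si-AC010789.1 and 34 lower (61.8% higher, against 49.9% of all genes), with a median log2 fold change of 0.08 against 0.00 for all genes. The median size of the log2 fold change, 0.26, was larger than the 0.14 of all genes, and so was the median standard error, 0.42 against 0.12. Fold changes of these genes were thus measured with less precision than those of the average gene tested.

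**Figure D3:**
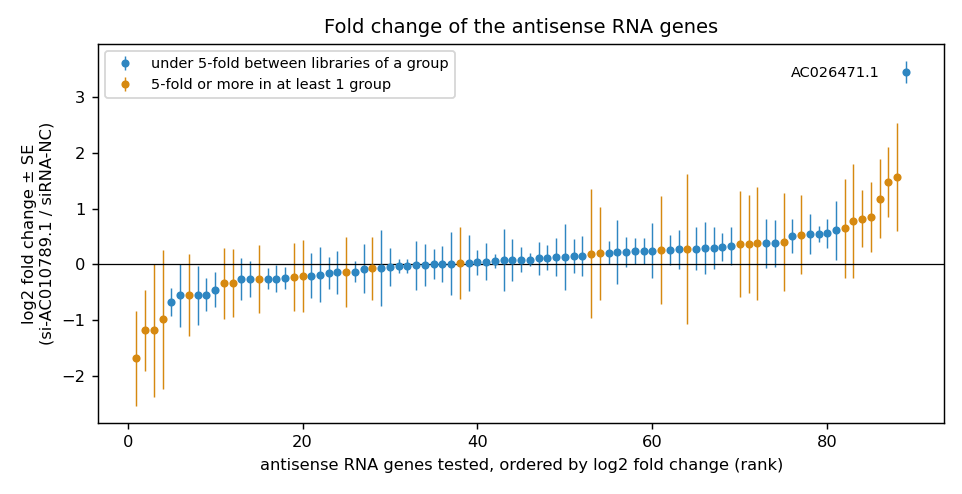
Log2 fold change of the 89 antisense RNA genes tested (si-AC010789.1 over siRNA-NC, vertical axis, bars of 1 standard error), ordered by size along the horizontal axis. Orange points are genes with a 5-fold or larger gap between libraries of a group. They make up 6 of the 7 genes with an absolute log2 fold change over 1, the exception being AC026471.1 at 3.46.

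AC026471.1 (ENSG00000260267.1) was annotated on GRCh38 at chr16:31456711-31459736 on the minus strand, as a single unspliced transcript of 3026 nt head to head with ARMC5, an armadillo repeat gene known as a tumor suppressor of the adrenal cortex. It had 14, 12 and 13 counts in the siRNA-NC libraries and 128, 163 and 125 counts in the si-AC010789.1 libraries, which gave 1.24, 0.905 and 0.975 CPM against 11.2, 13 and 10.1 CPM. Every si-AC010789.1 library was higher than every siRNA-NC library, and the siRNA-NC libraries alone would have placed the gene just over the limit of 1 CPM. The mean rose from 1.04 ± 0.177 to 11.4 ± 1.47 CPM (SD, n = 3 each), a log2 fold change of 3.46 with a standard error of 0.19, or 11-fold (9.61- to 12.5-fold at 1 standard error), and edgeR's adjusted p was 0.00694. An exact two-sided permutation test of the 6 values gave p = 0.1, the smallest that 3 against 3 allow. The call held in each of the 6 fits that left out 1 library, with log2 fold changes of 3.35 to 3.59. With the replicate number as a block it was lost, at a log2 fold change of 3.45 and an adjusted p of 0.101 in edgeR, though the labels do not say that equal numbers pair libraries. DESeq2 gave a log2 fold change of 3.47, but its independent filtering left the gene without an adjusted p.

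ARMC5, the gene on the other strand, was at 9.66, 7.69 and 8.63 CPM with siRNA-NC and at 12.4, 11 and 11.8 CPM with si-AC010789.1. Its 2 groups did not overlap either, but the difference was much smaller, with a log2 fold change of 0.44 (standard error 0.13) and an adjusted p of 0.161. Of the 3026 nt of AC026471.1, 1335 lie in exons of ARMC5 and 1691 do not. The first shared stretch (nt 1 to 913) faces exons of 4 listed ARMC5 transcripts, which did not move together. ENST00000268314 had 41, 62 and 59 counts with siRNA-NC and 97, 123 and 110 with si-AC010789.1, and so was higher in every si-AC010789.1 library. ENST00000457010, whose exons cover all 913 nt, had 21, 37 and 53 counts and 40, 13 and 17, with overlapping groups. ENST00000563544 had 45, 0 and 0 counts and 0, 0 and 16. The second stretch (nt 1236 to 1657) faces only ENST00000408912, which also reaches into the first and had 0, 1, 0, 4, 0 and 0 counts over the 6 libraries in the order siRNA-NC 1 to 3 and si-AC010789.1 1 to 3. The files hold counts per transcript and not positions of reads, so where along AC026471.1 its counts lie was not tested.

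The sequence at the edge of the second shared stretch is shown because it marks where the transcript leaves the exons of ARMC5 for the 1369 nt that no listed ARMC5 transcript covers. It was taken from the GENCODE v29 transcript, at nt 1638 to 1787 (GRCh38 chr16:31457950-31458099, minus strand), 5′ to 3′, with bases in exons of ARMC5 in capitals.
AC026471.1: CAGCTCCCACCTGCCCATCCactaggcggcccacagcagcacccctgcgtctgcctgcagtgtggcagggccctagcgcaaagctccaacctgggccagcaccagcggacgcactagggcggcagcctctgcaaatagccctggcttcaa

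**Figure D4:**
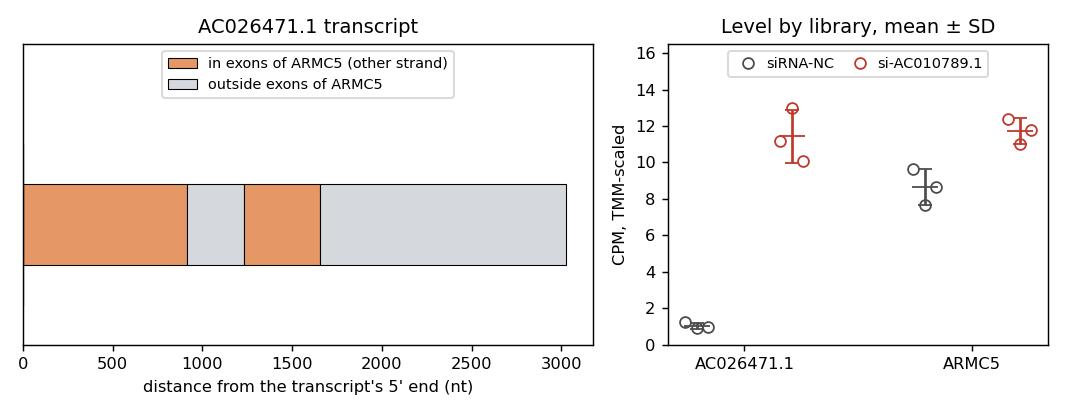
Left, the 3026 nt transcript of AC026471.1 by distance from its 5′ end, with the 2 stretches that lie in exons of ARMC5 on the other strand in orange. Right, levels of AC026471.1 and ARMC5 in each library (circles, CPM scaled by TMM) with the mean ± SD of 3 libraries per group. AC026471.1 goes from 1.04 to 11.4 CPM and ARMC5 from 8.66 to 11.8 CPM.

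AC026740.1 (ENSG00000271781.1, chr5:675826-676616, plus strand), a single-exon gene inside TPPP that shares no exon base with it, had the next smallest p and is named for it after its values were seen. It was at 5.94, 5.50 and 6.23 CPM with siRNA-NC and at 9.61, 8.95 and 7.29 CPM with si-AC010789.1. All 3 si-AC010789.1 values were higher, yet the log2 fold change of 0.55 (standard error 0.15) had an adjusted p of 0.148. TPPP was at 8.2 ± 0.960 CPM with siRNA-NC and 6.37 ± 1.54 CPM with si-AC010789.1 (log2 fold change −0.36, adjusted p = 0.436). The first 150 nt of AC026740.1 (GRCh38 chr5:675826-675975) are shown as an example of a gene that shares no exon base with its partner, so that none is in capitals.
AC026740.1: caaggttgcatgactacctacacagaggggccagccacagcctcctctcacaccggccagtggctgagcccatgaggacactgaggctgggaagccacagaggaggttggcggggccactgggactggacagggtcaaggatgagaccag

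FGD5-AS1, with the values given above, was the only gene of the 10 highest whose 3 si-AC010789.1 values all lay below the 3 siRNA-NC values, at 17.0 ± 2.06 CPM against 27.1 ± 9.86 CPM. Its log2 fold change of −0.68 ± 0.26 (SE) had an adjusted p of 0.255, and without the second siRNA-NC library, the highest, it was −0.35. Most of its counts came from ENST00000426200, with 147, 410 and 236 counts with siRNA-NC and 123, 161 and 143 with si-AC010789.1. ENST00000440079, another transcript of it, had 67, 94 and 84 counts and 44, 72 and 72. Its opposite-strand gene FGD5 had no row in the table analysed here. FBXL19-AS1, head to head with FBXL19 (an F-box protein that binds CpG islands), was at 9.13, 6.64 and 0.900 CPM with siRNA-NC and 14.8, 17.1 and 14.2 CPM with si-AC010789.1. Its groups did not overlap, but the third siRNA-NC library was far below the others in counts (103, 88 and 12), and the log2 fold change of 1.48 ± 0.63 (SE) with an adjusted p of 0.303 came to 0.96 without it. FBXL19 itself was at 37.5 ± 4.41 and 38.1 ± 3.72 CPM.

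The other 3 genes with separate groups did not pass the test either. DCST1-AS1 was at 3.37, 0.377 and 3.68 CPM with siRNA-NC and 4.37, 4.55 and 4.37 CPM with si-AC010789.1 (log2 fold change 0.85, adjusted p = 0.544), and the change came to 0.33 without the second siRNA-NC library. AC089983.1, within TXNRD1, was at 2.13, 1.73 and 3.30 CPM and at 3.49, 3.6 and 3.48 CPM (log2 change 0.56, adjusted p = 0.347). AC020915.3 was at 1.68, 2.11 and 1.8 CPM and at 0.0873, 1.52 and 0.0810 CPM (log2 change −1.69, adjusted p = 0.371). In the last, 2 of the 3 si-AC010789.1 libraries had 1 count each, and the other was near the siRNA-NC values. Without that library, the second, the log2 fold change was −4.32 with edgeR's adjusted p at 0.0635.

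The remaining large fold changes came with large gaps between libraries of a group. AL359915.2, head to head with WARS2 (the mitochondrial tryptophanyl-tRNA synthetase), was at 0.266, 0.603 and 1.05 CPM with siRNA-NC and at 0.349, 4.55 and 0.891 CPM with si-AC010789.1. Its log2 fold change of 1.57 (adjusted p = 0.463) became −0.05 without the second si-AC010789.1 library. Z95115.1, divergent from TFIP11 (a factor of spliceosome disassembly), was at 2.66, 1.51 and 0.225 CPM and at 2.01, 2.72 and 5.02 CPM (1.18, adjusted p = 0.453), and without single libraries its log2 fold change ran from 0.65 to 1.90. JMJD1C-AS1, inside a gene of the JmjC family of histone demethylases, was at 2.84, 1.73 and 2.78 CPM and at 2.53, 0.320 and 0.405 CPM (−1.19, adjusted p = 0.458), or −2.72 without the first si-AC010789.1 library and −0.74 without the second. ARRDC1-AS1 was at 5.41, 0.226 and 0.900 CPM and at 0.175, 2.08 and 0.486 CPM (−1.19, adjusted p = 0.669), and its sign turned to 0.70 without the first siRNA-NC library. Among the 64 tested genes not named by the rule, log2 fold changes ran from −0.56 to 0.82, with adjusted p-values of 0.148 and more.

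Of a list of 72 genes, mostly antisense RNAs, described in the cancer literature, 30 had a row in the table analysed here. Of these, 24 had the v29 type antisense and 6 another type, which could not be members, and 6 of the 24 were among the 92. None of these 6 members was called in edgeR, and FGD5-AS1, described above, alone had an unadjusted p under 0.05 there. In DESeq2, FGD5-AS1 had an adjusted p of 0.150, and independent filtering left the others without one. Without that filtering none of the 6 was called either. ZEB1-AS1, head to head with ZEB1 (a repressor that drives the epithelial-mesenchymal transition, and the gene the study follows), was at 5.85, 3.85 and 0.225 CPM with siRNA-NC and 4.45, 0.320 and 0.243 CPM with si-AC010789.1. It was high in 3 libraries and near the level of 3 counts in the other 3, and both groups held both kinds. The log2 fold change was −0.99 ± 1.24 (SE), with an adjusted p of 0.737, and ran from −3.50 without the first si-AC010789.1 library to −0.30 without the first siRNA-NC library. Nearly all counts of the 3 high libraries came from ENST00000607166, with 65, 50 and 1 counts with siRNA-NC and 50, 1 and 1 with si-AC010789.1. Nucleotides 1 to 248 and 451 to 536 of this 2503 nt transcript lie in exons of ZEB1. ZEB1 was at 27.1, 33.4 and 23.6 CPM and at 37.9, 32.8 and 57.5 CPM, with overlapping groups. Its log2 fold change was 0.61 ± 0.23 (SE), with an adjusted p of 0.259 in edgeR. The ZEB1 sum holds transcripts that did not move together. ENST00000542879, a retained-intron transcript, had 77, 195 and 83 counts with siRNA-NC and 69, 163 and 440 with si-AC010789.1. The coding ENST00000320985 had 3, 150 and 4 counts and 263, 31 and 181. The coding ENST00000361642 had 200, 50 and 204 counts and 62, 149 and 33. The study reported lower ZEB1 mRNA by qRT-PCR and lower ZEB1 protein by western blot after AC010789.1 was silenced. The gene sum here went the other direction. Of the other coding genes taken from the study's text (SNAI1, SNAI2, VIM, CDH1, CTNNB1, MYC, JUN, CCND1, CD44 and TCF7), none was the partner of a member.

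HOXA11-AS, opposite the homeobox gene HOXA11, was at 3.63, 2.26 and 2.78 CPM with siRNA-NC and 3.58, 3.36 and 0.486 CPM with si-AC010789.1 (log2 fold change −0.22, adjusted p = 0.891). NNT-AS1, head to head with the gene of the mitochondrial transhydrogenase NNT, was at 2.84, 5.28 and 2.03 CPM and at 2.80, 3.36 and 2.27 CPM (−0.27, adjusted p = 0.769). Both overlapped between the groups, and HOXA11-AS shares 997 nt of exon with genes on its own strand. ARHGAP5-AS1, head to head with ARHGAP5, was at 2.39, 1.89 and 2.18 CPM and at 1.22, 2.24 and 1.21 CPM (−0.46, adjusted p = 0.504). PRKAG2-AS1, opposite the gene of an AMP-activated protein kinase subunit, was at 1.24, 0.830 and 1.35 CPM and at 1.57, 2 and 1.30 CPM (0.51, adjusted p = 0.450). PRKAG2 itself was at 13 ± 0.874 and 16.4 ± 0.719 CPM (log2 change 0.34, adjusted p = 0.157).

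Large gaps between libraries of the same group were common among the antisense RNA genes. With counts under 3 set to 3, the highest library of a group was at least 5 times the lowest, per library total, in 32 of the 92 (34.8%): 21 with siRNA-NC, 19 with si-AC010789.1 and 8 in both. The limit of 5-fold was set after the values were seen. Protein-coding genes in the same range of mean CPM reached it in 181 of 6674 (2.71%), and those with 1 listed transcript in 63 of 790 (7.97%). Single transcripts of coding genes in that range reached it in 13969 of 36209 (38.6%), and the 62 antisense genes with 1 listed transcript in 37.1%. Whether the number of listed transcripts had a part in the gaps was not tested. Of the 32, 23 had 1 listed transcript. The share fell with level, from 19 of 43 genes under 2 CPM (44.2%, coding genes 10.3%) to 10 of 33 from 2 to 5 CPM (30.3%, coding genes 3.99%) and 3 of 16 above (18.8%, coding genes 1.62%).

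**Figure D5:**
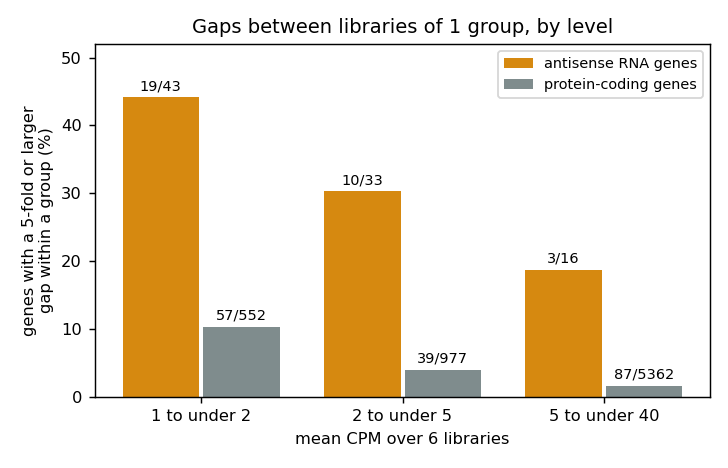
Share of genes (vertical axis, %) with a 5-fold or larger gap between libraries of a group, by mean CPM (horizontal axis), for the antisense RNA genes (orange) and protein-coding genes (grey), with numbers of genes above the bars. The antisense share is the higher one in each of the 3 ranges, at 44.2% against 10.3% in the lowest.

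The low libraries were not the same from gene to gene. Of the 40 gaps, the lowest value was in siRNA-NC libraries 1 to 3 in 2, 9 and 10 and in si-AC010789.1 libraries 1 to 3 in 7, 4 and 8. AC067852.2, 85.2% of whose exon bases lie in exons of HSD17B1 (an estrogen-forming dehydrogenase), had 1, 1 and 135 counts with siRNA-NC and 1, 1 and 1 with si-AC010789.1. AC239868.1, near a histone H4 gene, had 66, 0 and 0 counts and 0, 1 and 73. These genes were members through 1 or 2 libraries. AC004812.2, head to head with RAB35 (a small GTPase of endocytic recycling), had 61, 76 and 0 counts and 90, 70 and 0. TMEM147-AS1 had 12, 2 and 77 counts and 14, 67 and 68, and ZNF436-AS1 had 84, 7 and 80 counts and 62, 99 and 83. In each of these 3, libraries of the same group lay on both sides of the gap. By contrast 30 of the 92 stayed within 2-fold in both groups, AC026471.1 and AC026740.1 among them. These examples were picked after their values were seen.

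The overlapping coding genes held few calls, and their shares lay near those of all genes. The 92 genes have 75 coding genes that overlap them on the other strand, of which 60 were tested and none passed in edgeR's quasi-likelihood test, while 11 had an unadjusted p under 0.05 (18.3%, against 17.2% of all genes) and DESeq2 called 4 (6.67%, against 3.84%). Their median log2 fold change was 0.04 (35 higher, 25 lower), with a median standard error of 0.12, and 13 of the 60 (21.7%, against 25.1%) had separate groups. The 4 were TXNRD1, RAB35, TUBA1B and PDPK1, named after their values were seen. TXNRD1, the cytosolic thioredoxin reductase, was at 382, 546 and 353 CPM with siRNA-NC and 219, 216 and 227 CPM with si-AC010789.1 (log2 fold change −0.95 ± 0.16, SE, adjusted p = 0.0603 in edgeR and 2.38e-06 in DESeq2), while AC089983.1 inside it had a log2 fold change of 0.56 ± 0.26 (SE). RAB35 was at 52.3, 42.4 and 57.5 CPM and at 31.4, 35.9 and 26.5 CPM (−0.70, adjusted p = 0.101 in edgeR and 0.00386 in DESeq2). Both coding genes were lower in every si-AC010789.1 library. TUBA1B was at 958 ± 60.7 and 1190 ± 74.3 CPM (0.31, adjusted p = 0.0986 and 0.0120). PDPK1, a kinase of the PI3K pathway, was at 34.5, 33.4 and 28.7 CPM and at 100, 45.9 and 54 CPM (1.05, adjusted p = 0.154 and 0.00826).

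In 58 pairs both genes were tested. The 2 log2 fold changes had the same sign in 33 (56.9%), with both higher in 22 and both lower in 11. Among pairs whose exons overlap, 30 of 49 had the same sign, and among those without exon overlap, 3 of 9. Both genes of a pair were measured in the same 6 libraries, and where exons overlap they may share reads, so these counts are given without a test.

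The study centres on miR-432-3p, so the members' leading transcripts were searched for 2 motifs. CCATCCA pairs with bases 2 to 8, and CATCCAA pairs with bases 2 to 7 and ends in an A that pairs with no base. Only the transcribed strand was searched, and overlapping matches were joined and not counted separately. The mature sequence from RefSeq's table (GRCh38 chr14:100884544-100884564, plus strand) is shown with its seed, bases 2 to 8, in capitals, followed by a match in each of 2 genes named above, with the bases that pair with the seed in capitals. The match in WAC-AS1 begins at nt 1109 of its transcript (chr10:28524169-28524193 for the bases shown, minus strand), and that in AC026471.1 at nt 1652 (chr16:31458070-31458094, minus strand), where it crosses the edge of the second stretch shared with ARMC5.
miR-432-3p: cUGGAUGGcuccuccaugucu
WAC-AS1: gcaatgtctCATCCAatacagaata
AC026471.1: cccacctgcCCATCCActaggcggc

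A match was found in 12 of the 92 leading transcripts (13%, 0.086 matches per kb), against 37 of the 327 listed antisense genes under the limit (11.3%, 0.133 per kb). The median log2 fold change was 0.11 in the 12 genes with a match, 7 of them higher with si-AC010789.1, and 0.08 in the 77 tested without one, 48 of them higher. The leading transcripts of FGD5-AS1 and ZEB1-AS1 had none. A match is a description of the letters and not a binding site.

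RefSeq's promoter table (GRCh38.p14, 250 bases before to 50 after a gene's start) held 34 of the 92 genes by symbol. On either strand, CGCG was found in 29 of the 34 (85.3%, against 49.6% of the first promoters of all 27305 genes), CCAAT in 15 (44.1%, against 35.7%) and TATAAA in 1 (2.94%, against 12%). The median GC content was 67.0%, against 58.3%. The 34 come from genes chosen by level, while the 27305 were not limited to expressed genes. Whether level or a nearby coding promoter had a part in these differences was not tested. The promoter of FGD5-AS1 (chr3:14948392-14948691, minus strand) is shown because FGD5-AS1 was the highest gene among those whose groups did not overlap, with CCAAT in capitals.
FGD5-AS1: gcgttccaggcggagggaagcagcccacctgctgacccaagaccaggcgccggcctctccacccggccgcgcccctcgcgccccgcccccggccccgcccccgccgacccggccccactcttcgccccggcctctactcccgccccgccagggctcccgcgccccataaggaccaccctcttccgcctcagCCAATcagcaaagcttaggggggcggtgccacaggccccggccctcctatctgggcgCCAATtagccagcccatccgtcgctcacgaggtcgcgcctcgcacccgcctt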

How the data were processed

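The authors deposited 1 table of counts per Ensembl transcript for the 6 libraries (98886 transcripts), unnormalized. Paired-end libraries were made with the TruSeq RNA kit and sequenced on a NovaSeq instrument. The submitters' processing notes name CASAVA 1.8, TopHat2 2.0.6, GRCh38 and mm10, and the counting program, its annotation and its strand setting were not given in the sources used here. The study's methods name Cuffdiff, which needs alignments.

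Counts were summed per gene by GENCODE v29 (98782 transcripts matched, 104 not). Genes were tested with edgeR 4.0.16 (R 4.3.3; TMM, filterByExpr at min.count 10 and min.total.count 15, quasi-likelihood test, Benjamini-Hochberg over 13750 genes), fitted to all 6 libraries. The steps were tested on simulated data. Alternatives were DESeq2 1.42.0, its size factors, other filters and membership limits, a replicate block, and each library left out. DESeq2 without independent filtering was added after seeing the data. Single genes also had an exact permutation test. Named genes were those called or meeting the study's criteria, the 10 highest, the 5 largest fold changes each way, those at the limit, those opposite a gene the study names, and those on the literature list. The members and lists were chosen with earlier results of these data known. One of the 10 highest genes is not reported here.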

Additional observations from a re-analysis of the deposited data

How the results depend on the processing

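Only 1 of the antisense genes was called, and its call depended on 2 settings. With DESeq2 the number called higher was 0, because independent filtering gave AC026471.1 no adjusted p, and without that filtering, an alternative added after seeing the data, it was 1. With the replicate number as a block it was also 0, AC026471.1 having a log2 fold change of 3.45 and an adjusted p of 0.101. Same-numbered libraries of the 2 groups deviated together only weakly (correlations 0.111, 0.0109 and 0.0164), not every library correlated best with its own number, and neither the labels nor the study's text tie the numbers to shared cultures, so the number was not used as a pairing. The genes called over the whole table came to 528 with DESeq2, 464 without its independent filtering, 69 without a filter on low counts, 0 with the block and 12 to 37 with 1 library left out, against 135.

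The number of antisense genes meeting the study's criteria on the higher side was 2 in DESeq2 with and without independent filtering, 2 with the block, 3 at a membership limit of 0.5 CPM and 1 to 3 with 1 library left out. On the lower side it was 1 with a filter at a mean of 1 CPM and 0 to 2 with 1 library left out. Genes with separate groups numbered 11 at the limit of 0.5 CPM and 13 to 17 with 1 library left out, where fewer values have to lie apart. The 26 tested genes without exon overlap held 0 called, 0 at the study's criteria and 2 with separate groups. The median log2 fold change of the antisense genes was 0.0334 to 0.150 with 1 library left out. That of the overlapping coding genes was 0.0152 without a filter and 0.0086 to 0.0423 with 1 library left out. Apart from the construction named, the cause of these shifts was not tested.

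Of the 24 genes named by the rule and reported, 10 changed sign in some fit. AC068768.1 was at −0.12 with the block and AL355488.1 at −0.005 without a filter. With 1 library left out, log2 fold changes ranged from −0.28 to 0.44 for AC068768.1, −0.07 to 0.55 for OTUD6B-AS1, −0.13 to 0.066 for OVCH1-AS1, −0.29 to 0.05 for AC018647.2, −0.13 to 0.27 for AL355488.1, −0.054 to 2.11 for AL359915.2, −2.63 to 0.70 for ARRDC1-AS1, −0.54 to 0.21 for NNT-AS1, −0.36 to 0.99 for H1FX-AS1 and −0.58 to 0.27 for HOXA11-AS. A gene at 1 CPM rested on few reads, so small differences at that level may have gone undetected, and the size that could be detected was not tested. Under 2 CPM, gaps of 5-fold or more between libraries of a group were found in 44.2% of the antisense genes and 10.3% of coding genes, and the part of depth in the gaps was not tested.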
